A study of Mus musculus with 60 samples.

Results

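The genes described here encode enzymes that methylate lysine 9 of histone H3 (H3K9) and the proteins that recruit them or bind their product: Suv39h1, Suv39h2, Setdb1, Setdb2, Ehmt1, Ehmt2, Trim28, Cbx1, Cbx3 and Cbx5. They were taken by name from the table of expression values, which holds 24508 gene symbols, and all 10 were found. The study compared the hippocampus of wild-type (WT) mice with that of R6/1 mice, both 30 weeks old and on a mixed CBA x C57BL/6 background. The R6/1 line, a model of Huntington's disease, has exon 1 of human huntingtin with an expanded CAG repeat inserted as a transgene under the human huntingtin promoter, which the WT mice lack. RNA-seq was made as 18 libraries, 9 WT and 9 R6/1, which the labels describe as independent biological replicates, and lamin B1 ChIP-seq, made from pooled hippocampi, gave 1 list of lamin-bound domains per genotype. Each RNA-seq library held between 12299434 and 16736544 reads on genes. The labels give no sex, but Xist was at most 0.0365 RPKM and the Y-linked Ddx3y at least 11.6 RPKM in every library.

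H3K9 methylation is the mark of silent, compact chromatin. SUV39H1 and SUV39H2 trimethylate H3K9 mainly at the repeats around centromeres. SETDB1 trimethylates H3K9 at retroelements and at genes to which the corepressor TRIM28, also called KAP1, brings it after binding KRAB zinc finger proteins. EHMT1 (GLP) and EHMT2 (G9a) form a dimer that mono- and dimethylates H3K9 in gene-bearing chromatin. The HP1 proteins CBX5 (HP1 alpha), CBX1 (HP1 beta) and CBX3 (HP1 gamma) bind methylated H3K9 through a chromodomain, and heterochromatin that holds these marks lies in large part against the nuclear lamina, of which lamin B1 is a component.

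In R6/1 hippocampus 5 of these genes were expressed more than in WT: Suv39h1 by the most, and Trim28, Suv39h2, Cbx5 and Ehmt2 by less. Trim28 and Suv39h2 each had an R6/1 mean 1.18 times the WT mean. None was expressed less by the same test. Suv39h1 was the 1 member whose WT and R6/1 libraries did not overlap, and its R6/1 mean was 1.44 times the WT mean. Of all 14446 genes tested, 5.5% had every R6/1 library above every WT library and 6.38% had every one below. Such separation was therefore not rare. Expression is given as RPKM, reads per kilobase of gene scaled for depth by the authors. The test was limma's moderated test on log2(RPKM + 0.5) over 14446 genes, those whose mean reached 0.5 RPKM. The log2 fold changes below are on that scale, which understates the change of low genes, and adjusted p-values are Benjamini-Hochberg values over all those genes. Among them 24.8% were higher and 23.5% were lower in R6/1 at an adjusted p under 0.05, so calls were common among all genes. Of the 9 members tested, 5 were higher and 0 were lower, 0 of them also at an unadjusted p under 0.05. The authors' deposited table likewise held 5 of 10 members higher and 0 lower at that threshold, where 20% of its genes were higher and 20.4% lower. The median log2 fold change was 0.10 over the tested members and 0.0036 over all tested genes.

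**Figure D1:**
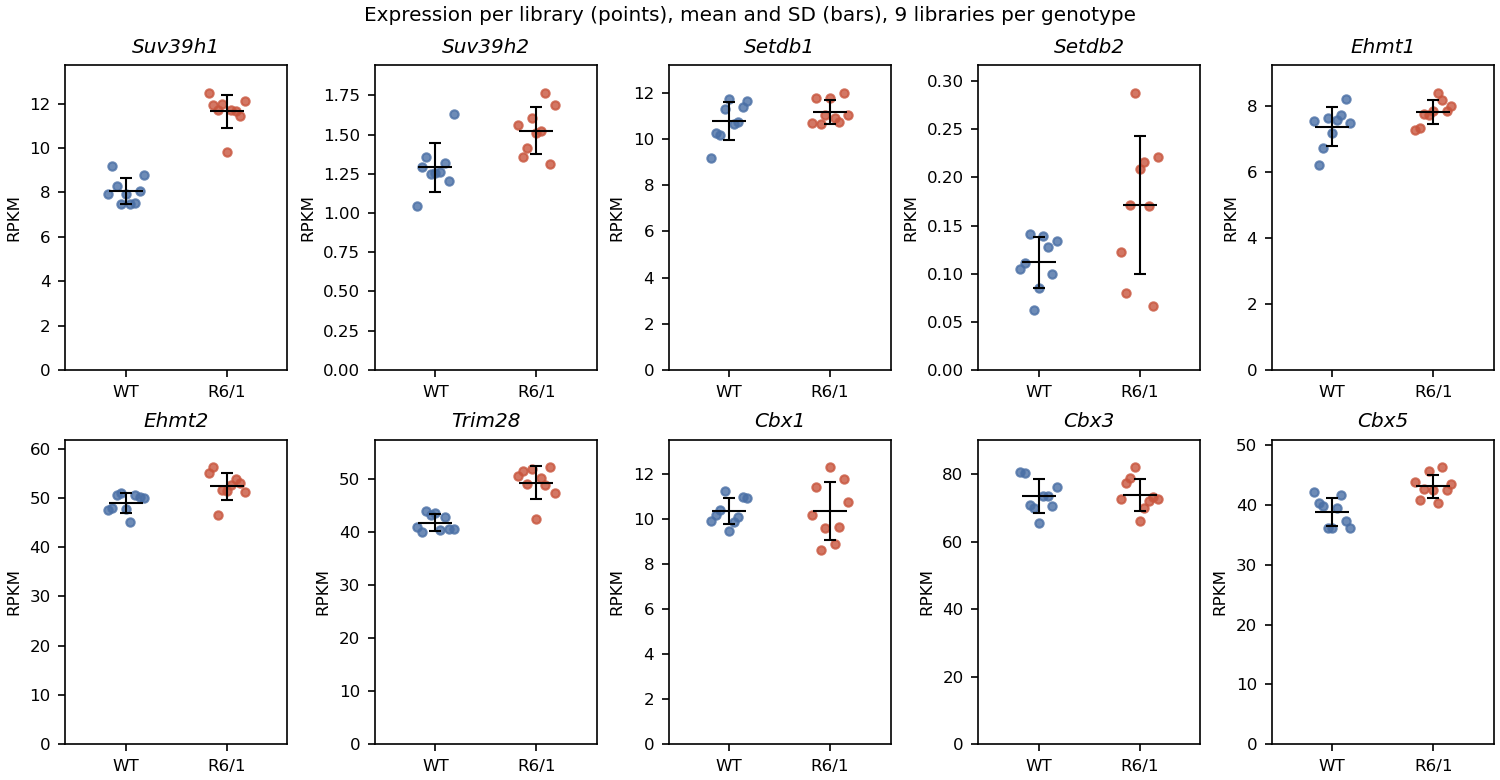
RPKM of each of the 10 members in every library (y axis of each panel, from 0), by genotype (x axis); points are libraries, and the bars show the mean and SD of 9 libraries. The R6/1 points of Suv39h1 all lie above the highest WT point at 9.20 RPKM, while those of Cbx1 cover the WT range and 8 of the 9 R6/1 points of Cbx3 lie within it.

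Promoters are given for the 3 members with the smallest limma adjusted p, all higher in R6/1. Suv39h1 and Cbx5 have 2 windows each, of which 1 is shown. Each run is the 250 bases before a RefSeq transcription start, from a promoter table built on GRCm38.p6 and located by exact match in NCBIM37 (mm9), the build of the deposited files. It is written 5′ to 3′ on the gene's strand, with CG dinucleotides in capitals.
Suv39h1, chrX:7651887-7652136, minus strand: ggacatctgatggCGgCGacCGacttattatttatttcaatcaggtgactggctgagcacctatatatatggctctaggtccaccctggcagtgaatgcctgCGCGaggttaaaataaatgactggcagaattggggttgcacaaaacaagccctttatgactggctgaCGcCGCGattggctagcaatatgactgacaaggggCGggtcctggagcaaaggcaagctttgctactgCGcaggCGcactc
Trim28, chr7:13609251-13609500, plus strand: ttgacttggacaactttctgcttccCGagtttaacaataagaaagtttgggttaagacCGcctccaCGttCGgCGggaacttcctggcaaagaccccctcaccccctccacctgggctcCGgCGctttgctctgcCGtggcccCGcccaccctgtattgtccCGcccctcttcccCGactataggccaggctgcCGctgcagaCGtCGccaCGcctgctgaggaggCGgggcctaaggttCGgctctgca
Cbx5, chr15:103070284-103070533, minus strand: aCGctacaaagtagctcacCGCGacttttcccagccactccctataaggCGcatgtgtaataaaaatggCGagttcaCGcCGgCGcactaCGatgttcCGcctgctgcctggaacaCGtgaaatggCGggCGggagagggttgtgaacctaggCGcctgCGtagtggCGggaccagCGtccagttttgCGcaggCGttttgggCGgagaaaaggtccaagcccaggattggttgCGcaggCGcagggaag
These 3 windows hold 11, 17 and 22 CG dinucleotides. The window not shown holds 25 for Suv39h1 and 7 for Cbx5. All 10 members matched the table, with 14 windows among them, and the windows held 7 to 36 CG dinucleotides, against a median of 6 over all 32851 promoters of the table (interquartile range 2 to 16). The 6 letters GGGCGG, the core of an SP-family site, were found on either strand in 12 of the 14 windows and in 32.7% of all promoters. CCAAT was found in 4 of the 14, among them the Suv39h1 window shown, which holds it 2 times, and in 33.8% of all promoters. The Suv39h1 and Cbx5 windows that are not shown hold it 0 times. The letters CCGGAAGT and TTTCCCGC were in 0 of the 14 windows, against 2.88% and 0.895% of all promoters. TTTGGCGC was in 1 window, of Cbx3, against 0.417% of all promoters. These matches describe the letters of the windows and are not measured binding sites.

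Suv39h1 (chromosome X, 7638297 to 7651886, minus strand), the pericentromeric methyltransferase, showed the clearest difference between the genotypes. In WT its level ran from 7.48 through a median of 7.93 to 9.20 RPKM, and in R6/1 from 9.82 through 11.7 to 12.5 RPKM. The lowest R6/1 library was above the highest WT library, a separation found in R6/1's favour for 5.5% of tested genes. WT libraries averaged 8.08 ± 0.594 RPKM and R6/1 libraries 11.6 ± 0.749 (SD, n = 9 each). The log2 fold change was 0.50 with a standard error of 0.05, and the limma adjusted p was 4.79e-08. In absolute size this exceeded the change of 91.3% of tested genes. A library held 325 to 680 reads on Suv39h1. The gene overlaps the opposite-strand gene Gm14820, and whether reads were counted by strand is not given in the sources used here, although the library kit keeps strand.

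Its relative Suv39h2 (chromosome 2, 3373087 to 3392303, minus strand), which makes the same mark and is known for its role in the germ line, was expressed at a far lower level. It ran from 1.05 through 1.26 to 1.63 RPKM in WT and from 1.31 through 1.52 to 1.77 RPKM in R6/1. The groups overlapped, and 2 of 9 R6/1 libraries were above the highest WT library. The log2 fold change was 0.18 with a standard error of 0.07 and a limma adjusted p of 0.0290, on 57 to 120 reads a library. The call was lost when WT replicate 1 (limma adjusted p 0.0541), R6/1 replicate 7 (0.0582) or R6/1 replicate 9 (0.0546) was left out. The gene overlaps Dclre1c and Gm13184 on the other strand. Within libraries, Suv39h1 was on average 6.28 times the level of Suv39h2 in WT and 7.65 times in R6/1. The gene lengths that the RPKM values imply were 0.685 of the annotated exons for Suv39h1 and 1.06 for Suv39h2. Annotated lengths would lower both ratios, but would not change their log2 difference. The log2 ratio differed by 0.28 between genotypes (exact permutation test over the choices of 9 of 18 libraries, two-sided, p = 0.00243, 0.0118 after adjustment over 6 ratios), and the ranges of the groups overlapped.

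Setdb1 (chromosome 3, 95127447 to 95161124, minus strand) showed no difference that passed the test. Its level ran from 9.20 through 10.7 to 11.7 RPKM in WT and from 10.6 through 11.03 to 11.99 RPKM in R6/1. Of the 9 R6/1 libraries 3 were above the WT range and the rest lay within it. The log2 fold change was 0.05 with a 95% interval from -0.04 to 0.14 (limma adjusted p 0.366). The relative Setdb2 (chromosome 14, 60020846 to 60059721, minus strand) was close to undetected, from 0.0623 to 0.141 RPKM across WT libraries and from 0.0663 to 0.288 across R6/1 libraries. Its levels rest on 3 to 6 reads a library in WT and 3 to 13 in R6/1, and Setdb2 was below the filter. Of the 9 R6/1 libraries 6 were above the highest WT library, and the WT mean was 0.112 ± 0.0267 RPKM and the R6/1 mean 0.172 ± 0.0718 (SD, n = 9 each), a ratio of 1.54. Fitted without the filter, the log2 fold change was 0.13 (95% interval 0.01 to 0.24, limma unadjusted p 0.0315), and it did not pass after adjustment (limma adjusted p 0.0801). In the authors' deposited table the adjusted p was 0.142. Setdb1 overlaps Lass2 on the opposite strand, and Setdb2 overlaps Gm16301 on its own strand, from which counting by strand would not separate it.

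Trim28 (chromosome 7, 13609501 to 13616384, plus strand), the corepressor that recruits SETDB1, was higher in R6/1. In WT it ran from 40.0 through 40.9 to 44.0 RPKM, and in R6/1 from 42.4 through 50.3 to 52.2 RPKM. All R6/1 libraries but replicate 5 were above the highest WT library. The means were 41.8 ± 1.59 and 49.4 ± 3.05 RPKM (SD, n = 9 each), a log2 fold change of 0.24 with a standard error of 0.04 and a limma adjusted p of 3.15e-05. The ratio of Setdb1 to Trim28 within libraries was 0.258 in WT and 0.227 in R6/1. The difference of -0.18 on the log2 scale passed (exact permutation test, p = 0.00683, 0.0137 after adjustment over 6 ratios).

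Ehmt2 (chromosome 17, 35035414 to 35050997, plus strand) and Ehmt1 (chromosome 2, 24646289 to 24775129, minus strand) encode the dimer that dimethylates H3K9. Ehmt2 ran from 45.2 through 50.0 to 51.0 RPKM in WT and from 46.6 through 52.6 to 56.2 RPKM in R6/1. In R6/1, 8 of 9 libraries were above the highest WT library, although the mean was only 1.07 times the WT mean. The log2 fold change was 0.10 with a standard error of 0.03 and a limma adjusted p of 0.0283. This call was narrow: it was lost without WT replicate 6 (limma adjusted p 0.0571), R6/1 replicate 1 (0.0536) or R6/1 replicate 2 (0.0564), with weights for the libraries (0.0557) and with the replicate number as a block (0.0540). Ehmt1 ran from 6.23 through 7.55 to 8.23 RPKM in WT and from 7.29 through 7.85 to 8.41 RPKM in R6/1. Its log2 fold change of 0.08 (95% interval -0.01 to 0.18) did not pass, with a limma adjusted p of 0.148. Ehmt1 was 0.150 of Ehmt2 in WT and 0.149 in R6/1, and this ratio showed no detectable difference (exact permutation test, p = 0.890, also 0.890 after adjustment over 6 ratios).

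Of the HP1 genes, Cbx5 (chromosome 15, 103021975 to 103070247, minus strand) was higher in R6/1 and the others did not pass. Cbx5 ran from 36.1 through 39.6 to 42.3 RPKM in WT and from 40.4 through 42.7 to 46.3 RPKM in R6/1. The groups overlapped, and 7 of 9 R6/1 libraries were above the highest WT library. The log2 fold change was 0.15 with a standard error of 0.04 and a limma adjusted p of 0.00277. Cbx3 (chromosome 6, 51420359 to 51433703, plus strand) was the highest of all members on the deposited RPKM scale. It ran from 65.5 through 73.5 to 80.8 RPKM in WT and from 66.2 through 72.7 to 82.1 RPKM in R6/1. The log2 fold change of Cbx3 was 0.01, with a 95% interval from -0.08 to 0.10 and a limma adjusted p of 0.890. Cbx1 (chromosome 11, 96650441 to 96669954, plus strand) ran from 9.48 through 10.2 to 11.3 RPKM in WT and from 8.65 through 10.2 to 12.3 RPKM in R6/1. In R6/1 it was more spread, with 3 libraries above and 2 below the WT range, and its log2 fold change was -0.01 (95% interval -0.13 to 0.12, limma adjusted p 0.933). The sign of the Cbx1 and Cbx3 values changed with the scaling or the libraries used, and neither passed in any of the 31 alternatives run.

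The levels of Cbx3 and Cbx1 are less certain than those of the other members. The coding sequence of Cbx3 has 12 further matches in the NCBIM37 genome that cover at least 50% of it at 90% identity or more, 7 of them at 95% or more, and Cbx1 has 1 such match. For the other 8 members there were 0 such matches. Reads of such copies could be placed on either. Cbx1 also overlaps Gm11517 on the opposite strand. The gene length that the RPKM values imply for Cbx1 was 0.325 of its annotated exons, outside the 10th to 90th percentile of 12827 genes (0.535 to 1.11), so its RPKM rests on a shorter gene model than the others.

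As shares of the summed RPKM of the 3 HP1 genes, Cbx3 made up 59.9 ± 1.18% of WT and 58.0 ± 1.87% of R6/1 expression (SD, n = 9 each). Cbx5 made up 31.7 ± 1.23% and 33.9 ± 1.37%, and Cbx1 8.47 ± 0.688% and 8.15 ± 1.13%. The gene lengths that the RPKM values imply were 0.608 of the annotated exons for Cbx3, 0.325 for Cbx1 and 1.09 for Cbx5. Annotated lengths would lower Cbx3 and Cbx1 and raise Cbx5, so the sizes of these shares are not settled. The ratios below carry the same limit, while their log2 differences between genotypes do not depend on gene length. The ratio of Cbx5 to Cbx3 was 0.529 in WT and 0.584 in R6/1, a log2 difference of 0.14 (exact permutation test, p = 0.00395, 0.0118 after adjustment over 6 ratios). The ratio of Cbx1 to Cbx5 differed by -0.16 (exact permutation p = 0.0716, adjusted 0.107) and that of Cbx1 to Cbx3 by -0.02 (exact permutation p = 0.853, adjusted 0.890), and neither passed. For none of the 6 ratios were the genotypes free of overlap.

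**Figure D2:**
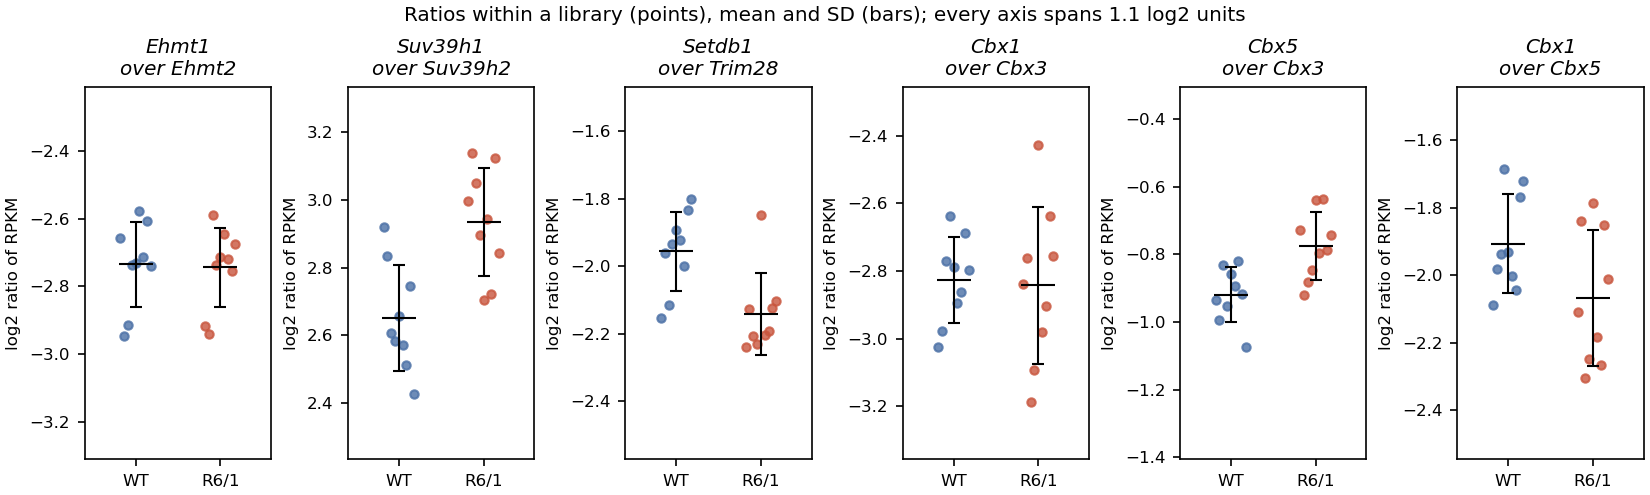
Log2 ratio of 2 members' RPKM within each library (y axis) for the 6 ratios tested, by genotype; points are libraries, and the bars show the mean and SD of 9. The Suv39h1 to Suv39h2 ratio is 0.28 higher in R6/1 on average, and the Ehmt1 to Ehmt2 ratio has the same mean of -2.74 in both genotypes.

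**Figure D3:**
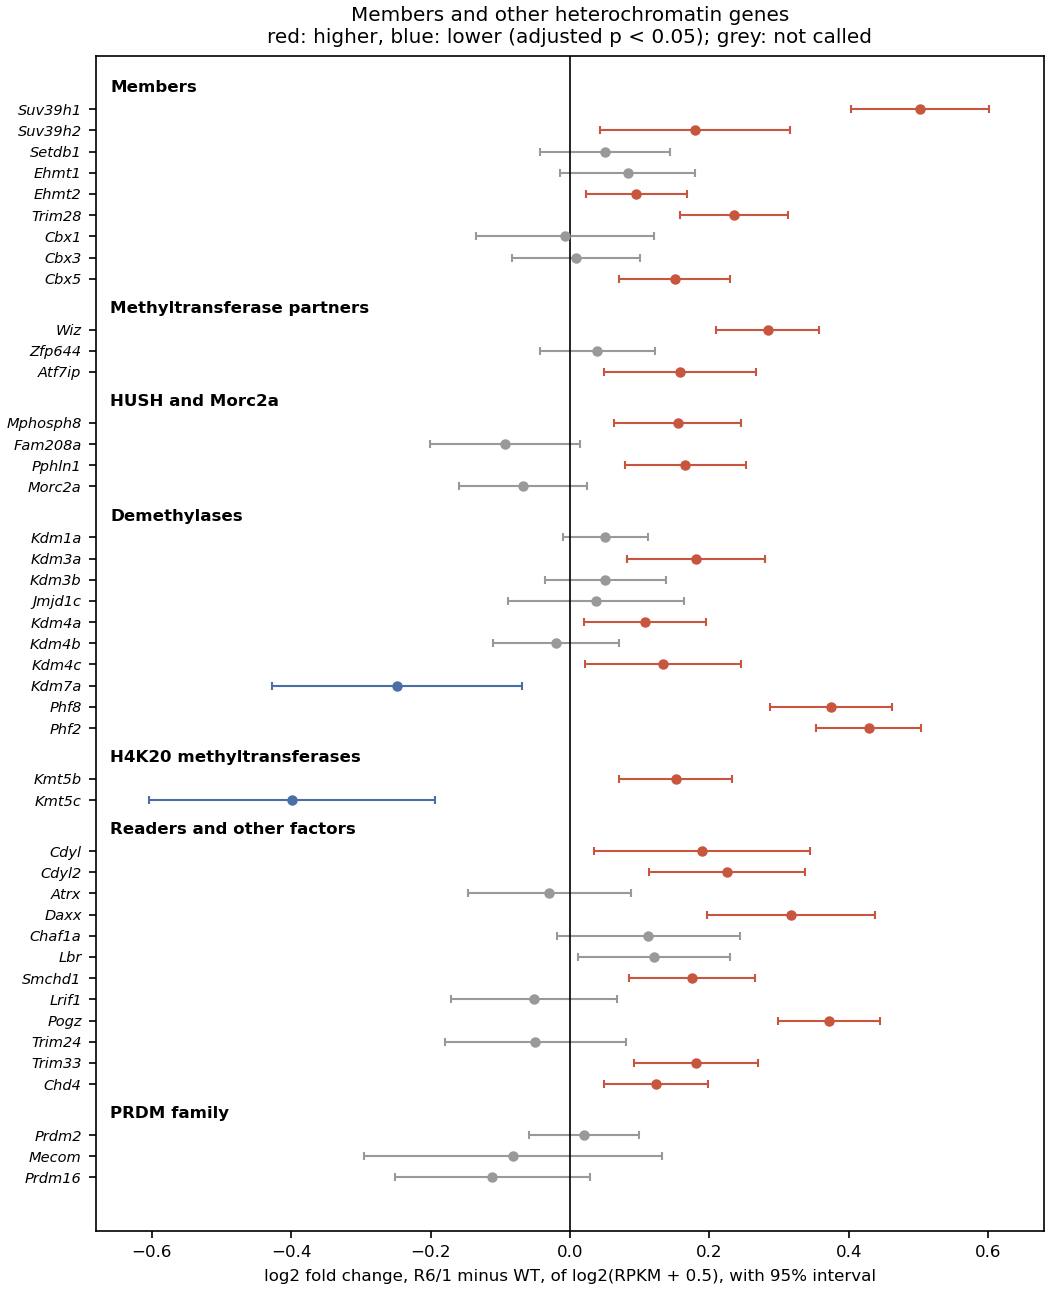
Log2 fold change (x axis, R6/1 minus WT on the log2(RPKM + 0.5) scale) of the tested members and of the other heterochromatin genes listed for comparison, with the 95% interval of limma's fit. Suv39h1 stands at 0.50, above Phf2 at 0.43, and the intervals of Setdb1, Ehmt1, Cbx1 and Cbx3 include 0.

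Ordered by mean RPKM in WT, a level per length, the members ran Cbx3, Ehmt2, Trim28, Cbx5, Setdb1, Cbx1, Suv39h1, Ehmt1, Suv39h2 and Setdb2. The highest, Cbx3 at 73.5 ± 4.96 RPKM, was above 94.2% of tested genes, and Suv39h2 at 1.29 ± 0.155 RPKM was above 12.5% (SD, n = 9 each). The places of Cbx3 and Cbx1 carry the limits given for their levels. The order also rests on the gene lengths that the RPKM values imply. These were 0.873 of the annotated exons for Trim28, 0.808 for Ehmt2, 0.608 for Cbx3 and 1.09 for Cbx5. Annotated lengths would lower Trim28, Ehmt2 and Cbx3 and raise Cbx5, so the order of these genes is not settled. Neighbours were compared within libraries by an exact sign-flip permutation test, adjusted over 9 pairs, whose smallest possible p is 0.00391. It tests only the spread over libraries, because an error in gene length is the same in every library. Setdb1 and Cbx1 (exact p = 0.172) and Suv39h1 and Ehmt1 (exact p = 0.0859, adjusted 0.0967) did not differ beyond their spread. On the deposited RPKM scale Trim28 passed over Cbx5 (adjusted exact p 0.0402) with overlapping ranges, which does not rank their levels on annotated lengths. In R6/1 Suv39h1 stood 5th instead of 7th, next to Setdb1 at 11.2 ± 0.526 RPKM, from which it did not differ (exact p = 0.258).

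Across libraries, after each genotype's mean was removed, the members showed little likeness to one another: the highest correlation between members was 0.52, for Suv39h1 and Cbx3. The tested genes most like each member are given as a description over 18 libraries, which share depth and tissue makeup. They are the best of 14445 genes, while members were compared only with one another. Their r values are therefore not comparable with that between members. For Suv39h1 they were Zwint (r 0.87) and Kazald1 (0.81), for Suv39h2 Angel2 (0.87) and Ttc8 (0.79), and for Trim28 Tasp1 (0.80) and Dctn6 (0.77). For Setdb1 they were Thoc1 and Zfp513 (both 0.87), for Ehmt1 Mlxip (0.87) and Bbof1 (0.84), and for Ehmt2 Grk6 (0.88) and Thap7 (0.83). For Cbx1 they were Dhx29 (0.87) and Mrpl12 (0.83), for Cbx3 Eloc (0.91) and Eid1 (0.90), and for Cbx5 Tmem167b (0.81) and Zfp560 (0.79).

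Among 39 other genes of the same pathway, 34 were tested, and more of them were higher than lower in R6/1: 17 higher, 2 lower and 15 not called, with a median log2 fold change of 0.12, where 24.8% of all tested genes were higher and 23.5% lower. Of the 4 partners of the methyltransferases, 3 were tested and 2 were higher, Wiz and Atf7ip; WIZ is a zinc finger partner of the EHMT1 and EHMT2 dimer, and ATF7IP is a partner of SETDB1. Wiz averaged 12.1 ± 0.576 RPKM in WT libraries and 14.9 ± 0.676 in R6/1 libraries (SD over 9 libraries, as for the genes that follow), a log2 change of 0.28 (limma adjusted p 2.13e-06). Of the 4 genes of the HUSH complex, which works with SETDB1, and its ATPase Morc2a, Mphosph8 and Pphln1 were higher and 0 were lower.

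Enzymes that remove H3K9 methylation were higher more often than lower as well. Of 10 demethylases tested, Kdm3a, Kdm4a, Kdm4c, Phf8 and Phf2 were higher and Kdm7a was lower. Over all tested genes 24.8% were higher and 23.5% lower. Phf2 averaged 14.2 ± 0.554 RPKM in WT libraries and 19.3 ± 1.05 in R6/1 libraries, a change of 0.43 (limma adjusted p 9.17e-09). Phf8, which is X-linked like Suv39h1, was 4.89 ± 0.258 and 6.48 ± 0.341 RPKM, a change of 0.37 (limma adjusted p 4.62e-07). Kdm7a averaged 12.2 ± 2.05 RPKM in WT libraries and 10.1 ± 1.15 in R6/1 libraries, a change of -0.25 (limma adjusted p 0.0218).

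Of 12 tested genes for proteins that read the mark or act beside it, 7 were higher (Cdyl, Cdyl2, Daxx, Smchd1, Pogz, Trim33 and Chd4) and 0 lower. The shares over all tested genes were 24.8% higher and 23.5% lower. Of the 3 genes of this list below the filter, Uhrf1, which binds methylated H3K9 and DNA, was lower when fitted without the filter (log2 fold change -0.37, limma adjusted p 7.01e-05) and Adnp was higher (0.23, limma adjusted p 0.00690), while Chaf1b did not pass (limma adjusted p 0.545). Pogz, which binds HP1 proteins, was 10.8 ± 0.50 and 14.2 ± 0.613 RPKM, a change of 0.37 (limma adjusted p 5.36e-08). Daxx, a chaperone of histone H3.3, was 7.18 ± 0.494 and 9.10 ± 0.941 RPKM, a change of 0.32 (limma adjusted p 0.000141). The 2 methyltransferases of lysine 20 on histone H4, which act where HP1 is bound, moved in opposite directions: Kmt5b was higher, and Kmt5c was lower, averaging 4.10 ± 0.725 RPKM in WT libraries and 2.99 ± 0.521 in R6/1 libraries, a change of -0.40 (limma adjusted p 0.00221). None of 3 PRDM-family methyltransferases passed. Wiz, Phf8, Phf2 and Pogz were the 4 genes of these lists whose R6/1 libraries were all above every WT library, and 0 of the 34 were all below, where 5.5% and 6.38% of all tested genes were. Lmnb1, which encodes lamin B1, was 2.62 ± 0.247 and 2.84 ± 0.183 RPKM, a change of 0.10 that did not pass (limma adjusted p 0.141).

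The scaling of the libraries bears on the counts of higher and lower genes. Dividing by the reads that each library had on genes, in place of the deposited scaling, put the median over all tested genes at 0.07 (log2), with 35.4% of genes higher and 17.5% lower. On that scale 6 members were higher, the 5 above and Ehmt1 (log2 fold change 0.15, limma adjusted p 0.0131), 0 were lower, and Kdm7a no longer passed (-0.18, limma adjusted p 0.0751). Suv39h1, Trim28 and Cbx5 kept their call under all 31 alternatives, with log2 fold changes of 0.48 to 0.57, 0.23 to 0.31 and 0.14 to 0.22.

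**Figure D4:**
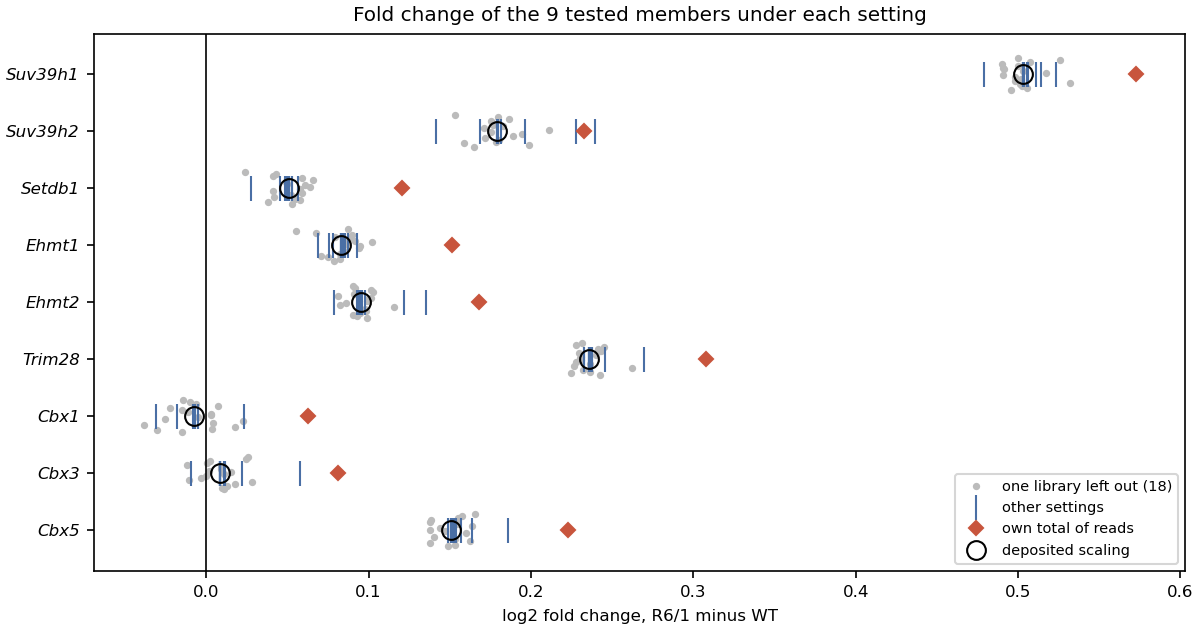
Log2 fold change of the 9 tested members (x axis) with the deposited scaling (open circles), with 1 library left out (grey points), with reads scaled to each library's own total (diamonds) and under the other settings (ticks). Suv39h1 stays between 0.48 and 0.57, while Cbx1 and Cbx3 lie on both sides of 0.

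The tissue itself differed between the genotypes, and the members are measured in whole hippocampus, where fewer cells of a type and less RNA per cell cannot be told apart. All marker lists were found in full. The 7 excitatory neuron markers, which define the labelled tissue, were all lower in R6/1, and their summed level ran from 1690 to 2029 RPKM in WT and from 936 to 1148 RPKM in R6/1. Inhibitory neuron markers were lower for 4 of 5 (344 to 412 RPKM in WT and 208 to 274 in R6/1), and astrocyte markers for 5 of 5 (428 to 598 and 317 to 463). Oligodendrocyte markers were lower for 4 of 5 (920 to 1181 and 550 to 974), microglia markers for 3 of 5 (66.4 to 91.1 and 50.6 to 88.7), and endothelial markers for 2 of 5 (33.1 to 62.1 and 32.0 to 58.6). Striatal projection neuron markers were lower for 3 of 5, at 20.6 to 30.1 and 13.9 to 18.6 RPKM. The part of this shift in the members' values was not tested. Of 5 markers of immature neurons and dividing cells (4.84 to 7.17 and 5.02 to 6.96 RPKM), 2 were tested and neither passed; the division marker Mki67 ran from 0.231 to 0.407 RPKM across WT libraries and from 0.0577 to 0.179 across R6/1 libraries, below the filter. Fitted without the filter, the 3 division markers were lower in R6/1: Mki67 by -0.39 on the log2 scale (limma adjusted p 1.44e-06), Top2a by -0.44 (limma adjusted p 1.48e-06) and Cdk1 by -0.14 (limma adjusted p 0.0263). Choroid plexus markers ranged from 25.4 to 1072 RPKM in WT and from 38.7 to 1738 RPKM in R6/1 with 0 of 5 called. Without the 2 libraries richest in them, WT replicate 3 and R6/1 replicate 3, 5 members were again higher and 0 lower, and the count of higher pathway genes was 14. Of the 14442 genes tested without these libraries, 3338 were higher and 3141 lower.

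Where the members lie relative to the nuclear lamina was read from the authors' lists of lamin B1 domains, 145 in WT and 166 in R6/1, each a single list with no replicate, so they are described without a test. Trim28 was the 1 of 10 members whose start lay in a domain, and it did so in both genotypes, where 13.0% of 12827 placed tested genes did in WT and 7.99% in R6/1. Its domain on chromosome 7 ran from 10545001 to 16243000 in WT and from 10508001 to 16280000 in R6/1, and the Trim28 start was 2.63 to 3.10 Mb from the ends of these intervals. The nearest domains to the other members were 1.29 Mb (Setdb1) to 30.8 Mb (Cbx5) away in WT and 1.92 to 30.7 Mb away in R6/1. For Suv39h1 the nearest domain border was 5.78 Mb away in both genotypes, at a domain that ran from 13431001 to 24198000 in WT and from 13431001 to 17131000 in R6/1. Over all 10 members the median distance was 4.22 Mb in WT and 4.29 Mb in R6/1, against 3.50 and 3.33 Mb for all placed tested genes.

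**Figure D5:**
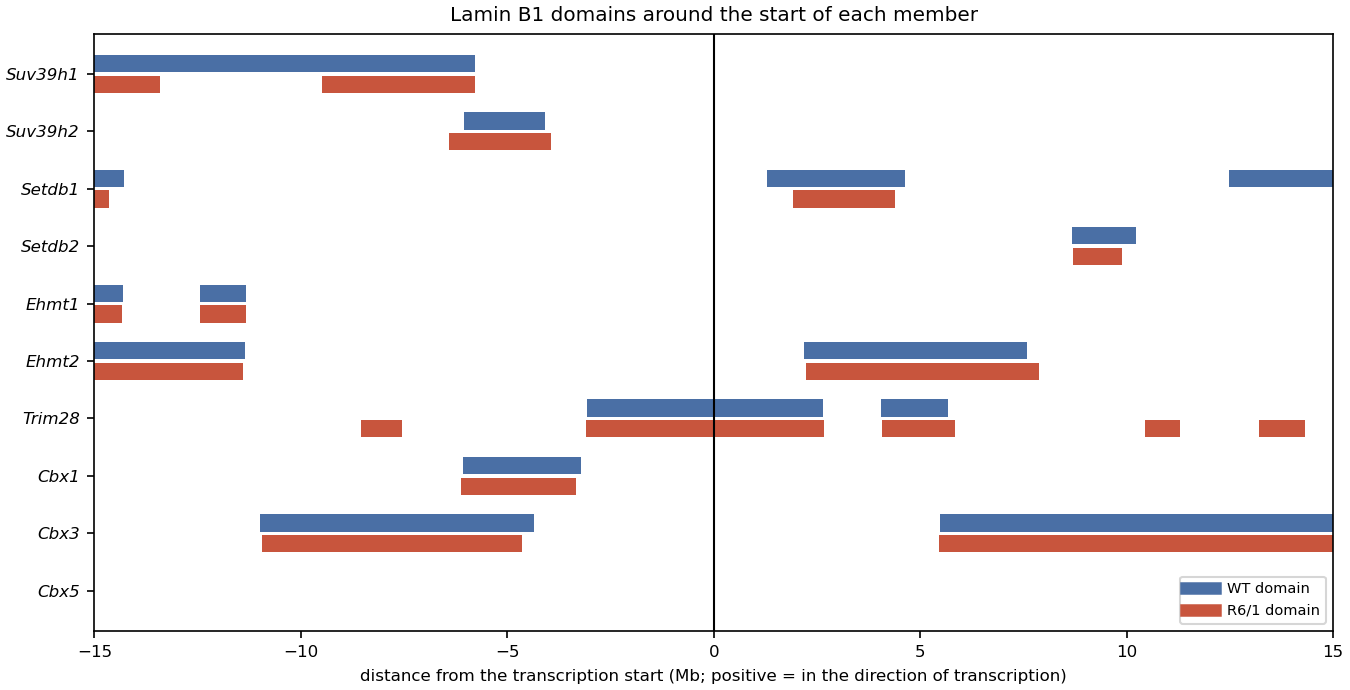
Lamin B1 domains (blue bars, WT; red bars, R6/1) around the transcription start of each member (0 on the x axis, in Mb along the direction of transcription). Trim28 is the only member whose start lies under a bar, and Cbx5 has none within the plotted range, its nearest being 30.8 Mb away in WT.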

How the data were processed

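The members and all gene lists were chosen with earlier results of these data known. The RPKM values of 18 RNA-seq libraries (WT and R6/1, 9 each) are as deposited by the authors, whose processing notes name TopHat, DESeq2 and mm9; the read counter and annotation are not given in the sources used here. In the authors' DESeq2 table, per the file headers, baseMean is a normalized count signal, log2FoldChange a log2 value, lfcSE its standard error, stat the test statistic, and pvalue and padj p-values. The authors' lamin B1 domain lists hold 1 score per domain, and how replicates were combined is not given. Dividing RPKM by the value of 1 read gave whole reads for 99.87% to 99.91% of values (tolerance 0.05), with 12299434 to 16736544 reads on genes per library. Genes whose mean reached 0.5 RPKM were fitted with limma 3.58.1 (R 4.3.3; lmFit, eBayes with trend) on log2(RPKM + 0.5). On simulated data the fit recovered 42.0% of 0.25, 93.9% of 0.5 and 97.9% of 1 log2 changes. The simulation changed only 48 to 50 of 14445 genes at each size, a far smaller share than was called in the data. Its recovery shares therefore do not give the power of the fit to the data. Single ratios and neighbours in level were tested by exact permutation, computed with NumPy 2.4.6. Named genes are the members, Lmnb1, the 5 largest called changes of the pathway lists in each direction (2 were called lower) and the 2 genes most like each member. Positions are from GENCODE vM1 on NCBIM37. The alternatives were other pseudocounts, filters, scalings and weights, Xist as a covariate, a replicate block, leaving out libraries, and the authors' calls. Xist was at most 0.0365 RPKM in every library, so the covariate could not show an effect of sex.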

Additional observations from a re-analysis of the deposited data

Results flagged for a closer look

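In R6/1 replicate 5, 3 values stood apart from the other 8 R6/1 libraries, each by a gap that was too large a part of the group's range by Dixon's criterion. Suv39h1 was at 9.82 RPKM, with the next library at 11.4 RPKM. Trim28 was at 42.4 RPKM, with the next at 47.3 RPKM, and the log2 ratio of Setdb1 to Trim28 was -1.85, with the next at -2.10. Of 32 groups of values examined, chance alone gives about 1.6 such cases; the ratio contains the low Trim28 value, so these 3 are not separate cases. Without this library the log2 fold changes were larger, 0.53 for Suv39h1 (limma adjusted p 7.30e-09) and 0.26 for Trim28 (limma adjusted p 9.58e-07).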

How the results depend on the processing

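Members called higher numbered 4 to 5 with 1 library left out and 4 to 6 under the other alternatives. Members called lower numbered 0 under all. Pathway genes higher numbered 14 to 17 and 14 to 22. The calls over all genes moved as well. With 1 library left out, 3422 of 14449 to 3673 of 14444 tested genes were higher. Without the filter 3652 of 20791 were higher, after quantile normalization 4251 of 14446, and with each library's reads on genes 5113 of 14447. Lower pathway genes numbered 3 without the filter and in the authors' deposited table. With RPKM rescaled by each library's reads on genes, 1 pathway gene was lower in place of 2, Cbx1 turned to 0.0626, and Lmnb1 passed (0.16, limma adjusted p 0.0224), as it did after quantile normalization (0.15, 0.0300). Without the choroid-plexus-rich libraries Cbx1 was 0.0234 and Cbx3 -0.0092. With 1 library left out, Cbx1 ran from -0.0383 to 0.0225 and Cbx3 from -0.0117 to 0.0282. The log2 ratios then ran from -0.034 to 0.0169 (Ehmt1 to Ehmt2), -0.0688 to 0.0264 (Cbx1 to Cbx3), 0.26 to 0.32 (Suv39h1 to Suv39h2), -0.22 to -0.17 (Setdb1 to Trim28), 0.12 to 0.16 (Cbx5 to Cbx3) and -0.20 to -0.13 (Cbx1 to Cbx5, which passed without R6/1 replicate 5, adjusted exact permutation p 0.0444). The causes were not tested. Same-numbered libraries were at most weakly alike. Their deviations correlated by -0.05 to 0.24, over 0.1 for 3 of 9 pairs, and 2 of 9 WT libraries correlated best with their own number. No chance level was computed for these values, so they do not settle whether the numbers pair the libraries. With the replicate number as a block, 4 members were higher and 0 lower, Ehmt2 being lost, 16 pathway genes were higher and 2 lower, and no ratio changed its call. Of all 14446 tested genes, 3666 were higher and 3467 lower with this block. Setdb2, at 3 to 13 reads a library, is limited by depth.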

Other observations

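Trim28 shares its lamin B1 domain with 72 genes of the expression table, itself included, of which 18 were tested, a group singled out after its values were seen. Of these 18, 11 have symbols that begin with Zbtb, Zfp, Zik or Zscan, and Mzf1 is a further zinc finger gene. They were counted by symbol, and whether their products are of the KRAB class that TRIM28 binds was not examined. Apart from Zik1, Zfp606 and Zfp551, the tested genes started within 255 kb of the Trim28 start, so they cover only a small part of the domain. Trim28 had the 4th highest mean level, and the median of the 18 was 4.31 RPKM. In R6/1, 11 of the 18, Trim28 itself included, were higher and 0 were lower by limma (adjusted p under 0.05), where 24.8% and 23.5% of all tested genes were, with a median log2 fold change of 0.16. Examples are Zbtb45 at 0.34 (limma adjusted p 5.46e-06) and Lig1, a DNA ligase, at 0.40 (limma adjusted p 0.000173).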
